A study of Mus musculus with 6 samples.

Results

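The 10 genes described here handle the uptake, storage and export of cellular iron: Fth1, Ftl1, Tfrc, Slc40a1, Slc11a1, Slc11a2, Ncoa4, Ireb2, Aco1 and Steap3. They were taken by symbol from a deposited table of 55414 mouse genes. All 10 had enough counts to be tested, among 17739 genes that did. The RNA came from microglia, the macrophages that live in the brain, of adult C57BL/6 mice aged 10 months. The 3 WT libraries carried no labelled mutation. The other 3 were labelled Selk-/-, a knockout of Selenok, the gene of a membrane selenoprotein in the endoplasmic reticulum. No treatment is labelled in either group, and the sources used here do not say how the allele was made. The title of replicate 3 of each group holds 2 numbers, and the sources used here do not say whether these libraries are pools. Whether the libraries of a group are different animals is not labelled either, so n = 3 counts libraries and each p-value reflects library-to-library spread, some of which may be technical.

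Cells take up transferrin-bound iron through the transferrin receptor Tfrc, reduce it in the endosome and move it to the cytosol, where it is used, stored in ferritin shells or exported through ferroportin. The iron regulatory proteins Aco1 and Ireb2 bind iron-responsive elements, short RNA hairpins, when iron is scarce. A hairpin in the 5′ UTR then blocks translation of ferritin and ferroportin, while hairpins in the 3′ UTR protect the Tfrc mRNA from decay. Ferritin mRNA therefore does not measure ferritin protein, and Tfrc mRNA is the member whose amount responds most directly to these proteins. In microglia and other macrophages the same machinery handles iron from engulfed cells and withholds it from microbes.

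The hairpins found by a strict letter search are shown because the UTR that holds one decides which of these controls applies. They were read from GENCODE M21 transcripts on GRCm38. Each is 29 bases long, 5′ to 3′, with T for U, and the 6-base loop is in capitals. The 5′ UTR elements were at chr19:9982732-9982760 on the plus strand (Fth1), chr7:45459779-45459807 on the minus strand (Ftl1) and chr1:45925465-45925493 on the minus strand (Slc40a1).
Fth1: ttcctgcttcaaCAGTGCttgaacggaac
Ftl1: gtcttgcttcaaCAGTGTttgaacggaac
Slc40a1: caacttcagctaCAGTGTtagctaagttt
The Ftl1 element differed from that of Fth1 at 3 of 29 bases, and the Slc40a1 element at 16.

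In the 3′ UTR of Tfrc, the search described below found 4 elements on the plus strand, at chr16:32631219-32631247, chr16:32631598-32631626, chr16:32631663-32631691 and chr16:32631710-32631738, in the order shown.
Tfrc 1: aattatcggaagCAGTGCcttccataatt
Tfrc 2: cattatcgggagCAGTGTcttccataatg
Tfrc 3: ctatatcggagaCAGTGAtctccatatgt
Tfrc 4: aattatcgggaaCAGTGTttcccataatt
Pairs of Tfrc elements differed at 4 to 11 bases, and each differed from the Fth1 element at 18 to 20. The search took an unpaired C, 5 paired bases, the loop CAGTGN and 5 bases closing the stem, G with T allowed, on the transcribed strand only. It found matches in 4 of 10 members, with every coding transcript of a member read. Among 21901 coding genes, 18 of 20381 5′ UTRs (0.0883%) and 103 of 20650 3′ UTRs (0.499%) held one. For this count only the transcript with the longest coding sequence of each gene was read, so the shares are not strictly comparable. A match describes these letters and does not show binding. The lack of one in the other members says only that these letters were not in their annotated UTRs. Hairpins with another loop or a mismatch in the stem would be missed in any member, so the matches do not sort the members by kind of control.

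Library totals were 21112082 to 28123871 counts, so 3 counts equal 0.107 to 0.142 CPM (counts scaled to a common library total). Selenok itself was present at 112, 125 and 120 CPM across WT libraries and 112, 108 and 109 CPM in those labelled Selk-/-. Its log2 fold change was -0.12 (edgeR adjusted p = 0.381), and the targeted mRNA did not separate the groups in CPM. In FPKM, explained below, the groups did not overlap. WT libraries held 60.1, 64.3 and 63.1 FPKM and those labelled Selk-/- 57.6, 55.2 and 56.3 FPKM. The mRNA was present in every library on both scales. Replicates 2 and 3 labelled Selk-/- stood apart with 46.0 and 54.9 CPM of small nucleolar RNA genes, against 318 to 327 CPM in the other 4 libraries. All 10 microglia markers were detected, and markers of border macrophages, endothelium, oligodendrocytes, choroid plexus and neutrophils were detected beside them. In bulk RNA, fewer cells of a type and less RNA per cell cannot be told apart.

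Per gene length, the ferritin subunits stood far above the other members. Ftl1, the light chain that helps the iron core form, had a mean level of 1292 FPKM (fragments scaled to gene length and library size) over the 6 libraries and ranked 31st among genes tested. Fth1, the heavy chain that oxidises iron for storage, had 823 FPKM and ranked 57th. The phagosomal metal transporter Slc11a1 followed at 77.2 FPKM, then the ferritin autophagy receptor Ncoa4 at 51.2 FPKM and the iron exporter Slc40a1 (ferroportin) at 44.8 FPKM. Below them lay Tfrc at 20.3 FPKM, the iron regulatory proteins Ireb2 at 12.6 FPKM and Aco1 at 10.4 FPKM, the endosomal iron transporter Slc11a2 at 7.12 FPKM and the endosomal ferrireductase Steap3 at 2.14 FPKM. Across libraries, the FPKM ranges of Ncoa4 and Slc40a1 overlapped, as did those of Tfrc and Ireb2. No other neighbours in this order overlapped.

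**Figure D1:**
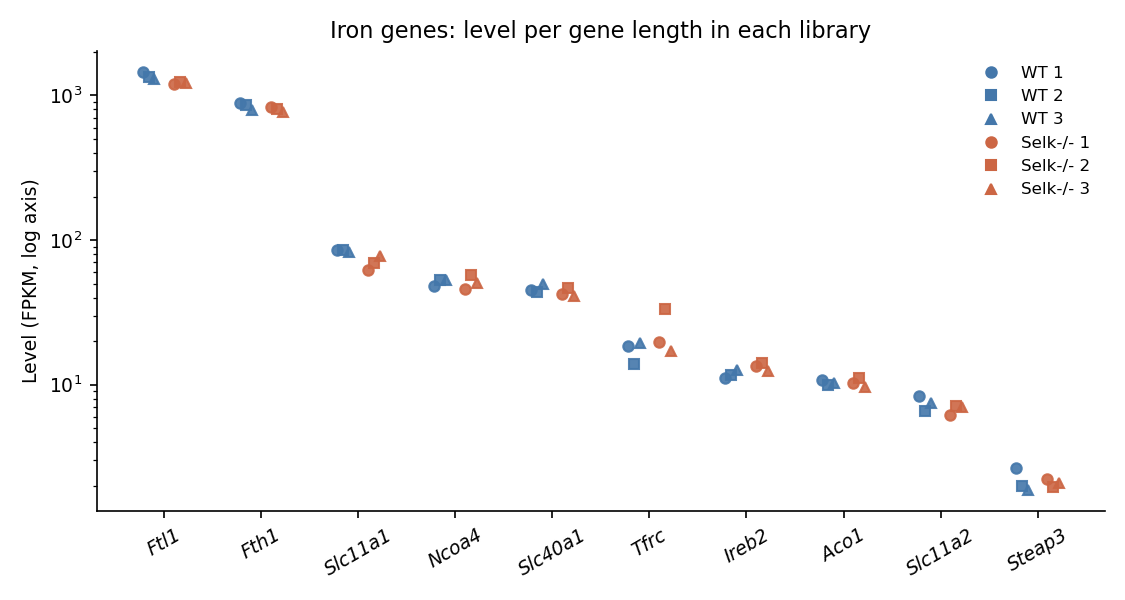
Level per gene length (FPKM, log axis) of each of the 10 genes, ordered by mean, with 1 point per library (blue WT, orange Selk-/-, shapes the replicates). Ftl1 and Fth1 lie above 767 FPKM in every library, and no other member exceeds 86.1 FPKM.

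The comparison of the libraries labelled Selk-/- with WT asked whether any of these mRNAs differed with the labelled genotype. None of the 10 members passed an adjusted p of 0.05 in edgeR's quasi-likelihood test, which called 0 of 17739 genes (0%). At an unadjusted p under 0.05, 3 of 10 members were past the threshold, against 19.1% of all genes tested. These were Slc11a1 and Ftl1, lower in the libraries labelled Selk-/-, and Ireb2, higher there. Slc11a1 alone was past it when WT replicate 1, WT replicate 2, or replicate 1 or 2 labelled Selk-/- was left out. DESeq2, run as an alternative, called 1 of 10 members, Slc11a1, against 7.7% of the 12657 genes it adjusted. The groups did not overlap for 2 of 10 members, Slc11a1 and Ftl1, against 26.2% of all genes tested. Without WT replicate 3, which leaves 2 WT libraries, they did not overlap for 4 members, against 40.4% of all genes tested. Both shares of members are near the background or below it. The median log2 fold change was -0.022 over the members and -0.008 over all genes tested, with 5 members higher and 5 lower.

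**Figure D2:**
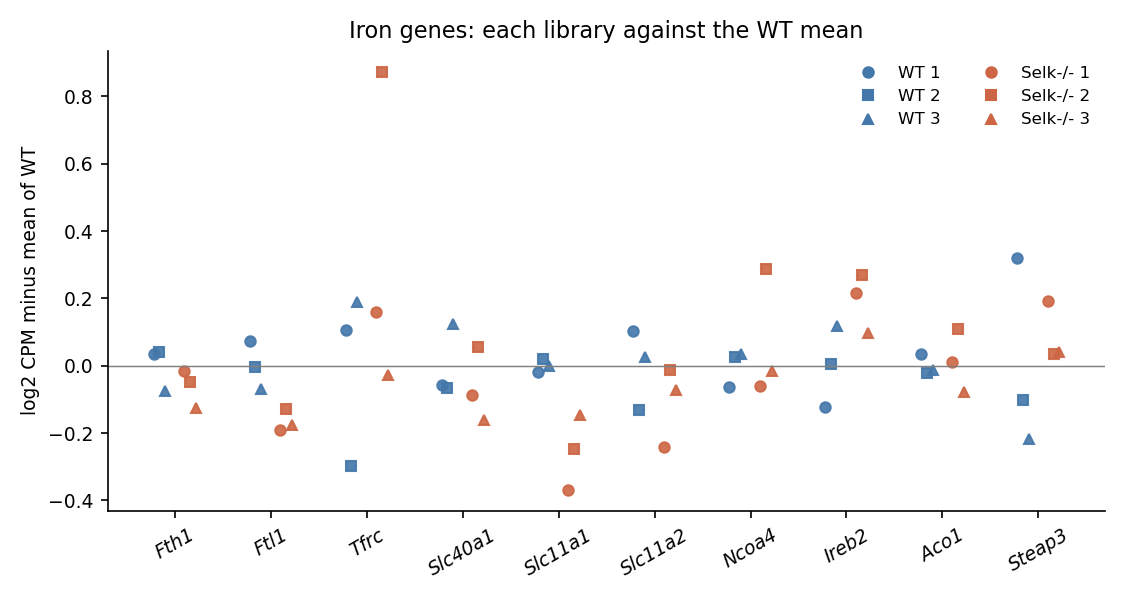
log2 CPM of each gene in each library minus the mean of the 3 WT libraries (colours and shapes as for the levels). The libraries labelled Selk-/- all lie below WT for Slc11a1 and Ftl1, and replicate 2 labelled Selk-/- stands alone for Tfrc at 163 CPM.

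Gene positions are given as the deposited table has them, on a build it does not name and that is not GRCm38. Of the storage genes, both ferritin subunits had more FPKM than any other member. Fth1 (ENSMUSG00000024661, chromosome 19, 9957962 to 9962462) held 1328, 1333 and 1231 CPM in WT replicates 1 to 3 and 1282, 1255 and 1189 CPM in replicates 1 to 3 labelled Selk-/-, an order of libraries kept for every gene below. The groups overlapped, around means of 1297 ± 57.6 and 1242 ± 47.8 CPM (SD, n = 3 each). The edgeR fit gave a log2 fold change of -0.06 ± 0.073 (SE), a 95% interval from -0.23 to 0.11 and an adjusted p of 0.670, within the spread between libraries.

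Ftl1 (ENSMUSG00000050708, chromosome 7, 45107368 to 45109308) held 1567, 1484 and 1419 CPM across WT libraries and 1304, 1361 and 1317 CPM in those labelled Selk-/-. Every library labelled Selk-/- lay below every WT library, with group means of 1490 ± 74.0 and 1327 ± 30.01 CPM (SD, n = 3 each). In edgeR its log2 fold change of -0.17 ± 0.072 (SE) had a 95% interval from -0.33 to -0.0002, an unadjusted p of 0.0498 and an adjusted p of 0.262. It therefore did not pass the test over all genes. After removal of the dependence on gene length within each library, the value was -0.07 (edgeR adjusted p = 0.650). Libraries differed in the slope of log2 level on log2 gene length, which was 0.0521 and 0.0637 in replicates 2 and 3 labelled Selk-/- and between -0.048 and -0.0187 in the other libraries. The part of gene length in the Ftl1 value was otherwise not tested.

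Within each library, the ratio of Fth1 to Ftl1 FPKM was 0.604, 0.636 and 0.608 in WT libraries and 0.699, 0.654 and 0.633 in those labelled Selk-/-. The groups overlapped by 1 library (two-sided exact permutation p = 0.2; Benjamini-Hochberg adjusted p = 0.375 over 15 within-library quantities). With 3 against 3 libraries, 0.1 is the smallest p this test can give. Together the ferritin genes took 0.296%, 0.279% and 0.264% of all counts in WT libraries and 0.256%, 0.259% and 0.250% in those labelled Selk-/-.

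Ferritin genes have many processed pseudogenes, and reads from near-identical copies can be assigned to any of them, so the ferritin values carry that uncertainty. The table listed 18 ferritin genes and pseudogenes, of which 16 were not members and 5 of these had any count. Ftl1-ps1, annotated as protein coding and with an iron-responsive element match of its own, had 1118, 1013 and 1024 counts in WT libraries and 931, 985 and 678 in those labelled Selk-/-, which is 2.44% to 2.81% of the Ftl1 count of the same library. Its log2 fold change was -0.13 (SE 0.086, edgeR adjusted p = 0.441), of the same sign as that of Ftl1. Ftl2-ps had 211 to 326 counts, or 0.739% to 0.856% of Ftl1, with a log2 fold change of -0.09 (SE 0.106, edgeR adjusted p = 0.661). The remaining copies held few counts, with 8 to 13 for Ftl1-ps2, 1 to 5 for Fth-ps2 and at most 1 for Fth-ps3. An antisense gene on the opposite strand of Ftl1 held at most 617 counts in a library. The sources used here do not say how reads on either strand or at several places were counted.

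Ncoa4 (ENSMUSG00000056234, chromosome 14, 31881822 to 31901812) brings ferritin to the lysosome for breakdown, which releases its iron. It held 189, 200 and 202 CPM across WT libraries and 189, 240 and 195 CPM in those labelled Selk-/-. The groups overlapped, and replicate 2 labelled Selk-/- was the highest library. The edgeR fit gave a log2 fold change of 0.08 ± 0.102 (SE), a 95% interval from -0.16 to 0.31 and an adjusted p of 0.708. Without that library it was -0.02, so its sign rested on 1 library.

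Among the uptake genes, Tfrc (ENSMUSG00000022797, chromosome 16, 32427738 to 32451612) had the largest standard error of all members. It held 96.0, 72.5 and 102 CPM across WT libraries and 99.5, 163 and 87.5 CPM in those labelled Selk-/-. The groups overlapped: replicate 2 labelled Selk-/- was above all other libraries, and the other libraries labelled Selk-/- lay within the WT range. Group means were 90.1 ± 15.5 CPM and 117 ± 40.8 CPM (SD, n = 3 each). The log2 fold change of 0.37 (SE 0.261, 95% interval -0.26 to 1.01, edgeR adjusted p = 0.477) was within the spread between libraries. Without replicate 2 labelled Selk-/- it was 0.07 (edgeR adjusted p = 0.867). Without replicate 3 labelled Selk-/- it was 0.56 (edgeR adjusted p = 0.370), and without replicate 3 of both groups 0.65 (edgeR adjusted p = 0.380).

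The library with the high Tfrc level also had the highest sum of neutrophil markers. The summed level of 12 neutrophil markers, all detected and led by S100a9, was 808, 522 and 1266 CPM across WT libraries and 468, 6496 and 1223 CPM in those labelled Selk-/-. Monocyte and dendritic markers, led by Chil3, summed to 143 to 225 CPM in 5 libraries and to 649 CPM in that library, and erythroid markers to 64.9 to 124 CPM and to 181 CPM. Between the groups, the log2 fold changes of all 12 neutrophil markers were above 0 in libraries labelled Selk-/-. Of these markers, 0 had an unadjusted edgeR p under 0.05 and 0 were without overlap. Their sums overlapped between the groups (two-sided exact permutation p = 0.7), and replicate 1 labelled Selk-/- had the lowest sum of all libraries. Of 9 monocyte and dendritic markers, 5 were lower and 4 higher. Of 5 erythroid markers tested, 2 were lower and 3 higher, so these sums do not stand for each of their markers. The erythroid genes Epb42 and Ahsp were at or near 0 counts throughout. Lcn2, an iron-siderophore carrier of neutrophil granules and inflamed tissue, is one of the 12 neutrophil markers and is already in their sum. Named here after its values were seen, Lcn2 was at 465 CPM in that library and at 26.5 to 127 CPM in the others. The part of these cells in the Tfrc level was not tested.

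**Figure D3:**
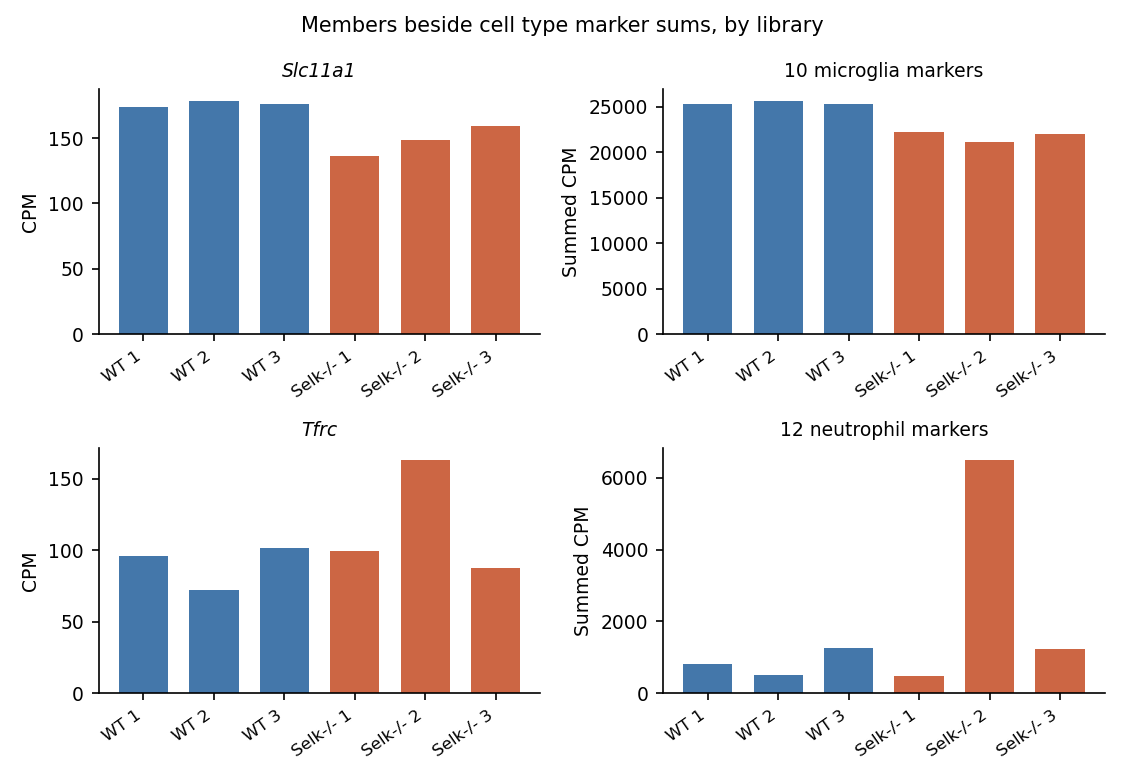
CPM of Slc11a1 and Tfrc in each library, beside the summed CPM of 10 microglia markers and of 12 neutrophil markers (bars from 0, blue WT, orange Selk-/-). Slc11a1 and the microglia sum are lower in all 3 libraries labelled Selk-/-, and Tfrc and the neutrophil sum are highest in replicate 2 labelled Selk-/-.

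Slc11a2 (ENSMUSG00000023030, chromosome 15, 100285779 to 100322953, also known as DMT1) carries reduced iron out of the endosome. It held 32.8, 27.8 and 31.1 CPM across WT libraries and 25.8, 30.3 and 29.0 CPM in those labelled Selk-/-. The groups overlapped, and edgeR gave a log2 fold change of -0.11 ± 0.096 (SE), a 95% interval from -0.33 to 0.12 and an adjusted p of 0.570. Steap3 (ENSMUSG00000026389, chromosome 1, 120118487 to 120200435), which reduces iron in the endosome, had the lowest FPKM of the members and held 9.33, 6.96 and 6.42 CPM across WT libraries and 8.54, 7.65 and 7.69 CPM in those labelled Selk-/-. All 3 of the latter lay inside the WT range, with a log2 fold change of 0.07 (SE 0.165, 95% interval -0.31 to 0.46, edgeR adjusted p = 0.842).

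Slc11a1 (ENSMUSG00000026177, chromosome 1, 74414354 to 74425221, also known as NRAMP1) pumps iron and manganese across the phagosome membrane and is typical of macrophages. C57BL/6 mice are known to carry an allele with impaired function. It held 174, 179 and 176 CPM across WT libraries and 136, 148 and 159 CPM in those labelled Selk-/-. The groups did not overlap, with means of 176 ± 2.38 CPM and 148 ± 11.3 CPM (SD, n = 3 each). The WT libraries lay close together, and the libraries labelled Selk-/- were spread more widely below them.

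The edgeR estimate put the log2 fold change of Slc11a1 at -0.25 ± 0.075 (SE), with a 95% interval from -0.43 to -0.08. Its unadjusted p was 0.0108 and its adjusted p 0.154 in edgeR, while DESeq2 gave -0.26 with an adjusted p of 0.033. Over 19 alternative settings the log2 fold change was between -0.37 and -0.19, with adjusted p from 0.033 to 0.420, and DESeq2 was the setting that called it. Without replicates 2 and 3 labelled Selk-/-, which had few small nucleolar RNA counts, the value was -0.35 (edgeR adjusted p = 0.420), and it then rested on 1 library labelled Selk-/-.

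Microglia markers were lower in the same libraries as Slc11a1. The 10 markers summed to 25304, 25644 and 25301 CPM across WT libraries and 22193, 21070 and 21932 CPM in those labelled Selk-/-, a log2 ratio of -0.23, with 10 of 10 markers lower (two-sided exact permutation p = 0.1 for the sum). Per 10000 CPM of these markers, Slc11a1 was at 68.7, 69.6 and 69.6 in WT libraries and 61.5, 70.4 and 72.5 in those labelled Selk-/-, so the groups overlapped on that scale. Ftl1 also overlapped on it, at 561 to 619 in WT libraries and 587 to 646 in those labelled Selk-/-. Fth1, Ncoa4, Ireb2 and Aco1 were higher without overlap per microglia marker CPM (exact permutation p = 0.1 each, adjusted p = 0.25). On this scale, which raises every gene alike in the libraries labelled Selk-/-, 39.4% of all genes tested were also higher without overlap, so 4 of 10 members is near the background. Border macrophage markers, 11 of 11 lower, summed to 787 to 1150 CPM across WT libraries and 357 to 723 CPM in those labelled Selk-/-. The part of cell makeup in the Slc11a1 and Ftl1 values was otherwise not tested.

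Export is represented by Slc40a1 (ENSMUSG00000025993, chromosome 1, 45947228 to 45965683). It held 170, 169 and 193 CPM across WT libraries and 167, 184 and 158 CPM in those labelled Selk-/-. The groups overlapped, and edgeR gave a log2 fold change of -0.06 ± 0.087 (SE), a 95% interval from -0.27 to 0.14 and an adjusted p of 0.718. The ratio of the exporter to the uptake receptor, Slc40a1 to Tfrc FPKM, was 2.43, 3.13 and 2.56 in WT libraries and 2.17, 1.41 and 2.39 in those labelled Selk-/-. It was lower in all 3 of these (exact permutation p = 0.1, adjusted p = 0.25), and the lowest value was in replicate 2, the library with the high Tfrc level.

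The regulators Ireb2 and Aco1 bind the hairpins shown above. Ireb2 (ENSMUSG00000032293, chromosome 9, 54771073 to 54819814, iron regulatory protein 2) is degraded when iron is plentiful. It held 72.1, 78.7 and 85.2 CPM across WT libraries and 91.1, 94.5 and 84.0 CPM in those labelled Selk-/-. The groups overlapped by 1 library, replicate 3 labelled Selk-/-. Means were 78.7 ± 6.54 CPM and 89.9 ± 5.38 CPM (SD, n = 3 each), and edgeR estimated a log2 fold change of 0.19 ± 0.083 (SE) with a 95% interval from 0.0002 to 0.38. The unadjusted p was 0.0498 and the adjusted p 0.262 in edgeR, so Ireb2 did not pass the test over all genes. The value was 0.12 with the gene length trend removed (edgeR adjusted p = 0.562) and 0.31 without replicate 3 of both groups (edgeR adjusted p = 0.281), and its sign was the same over all 19 alternatives.

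Aco1 (ENSMUSG00000028405, chromosome 4, 40143081 to 40198338, iron regulatory protein 1) binds the same hairpins when it lacks its iron-sulphur cluster and is a cytosolic aconitase when it holds one. It held 47.2, 45.3 and 45.6 CPM across WT libraries and 46.4, 49.7 and 43.7 CPM in those labelled Selk-/-. The groups overlapped, and edgeR gave a log2 fold change of 0.02 ± 0.072 (SE), a 95% interval from -0.15 to 0.18 and an adjusted p of 0.915. The ratio of Ireb2 to Aco1 FPKM was 1.03, 1.17 and 1.24 in WT libraries and 1.31, 1.27 and 1.29 in those labelled Selk-/-. It was higher in all 3 of the latter (exact permutation p = 0.1, adjusted p = 0.25).

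**Figure D4:**
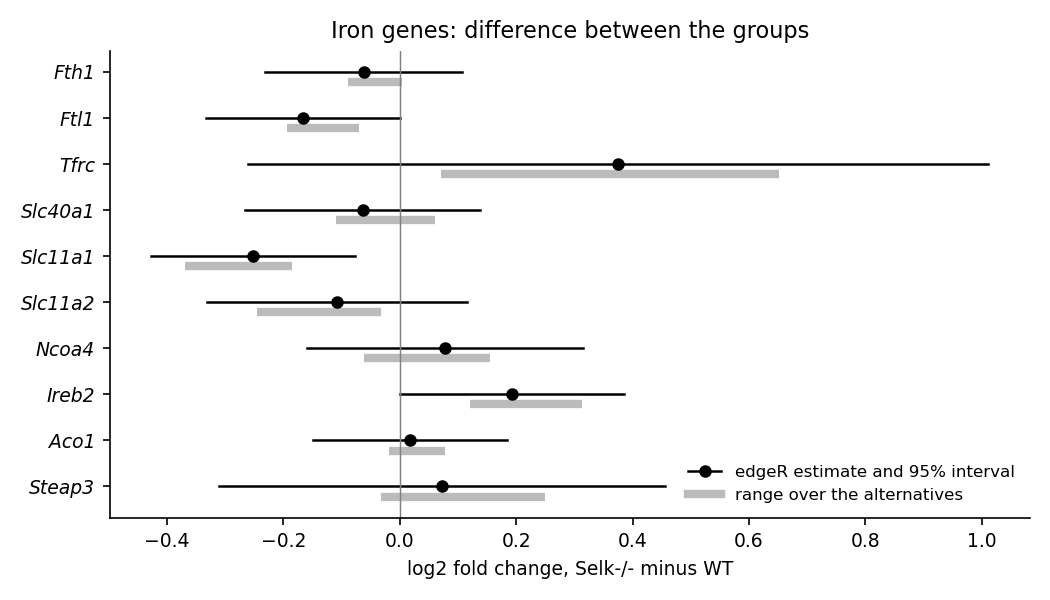
log2 fold change of each gene, libraries labelled Selk-/- minus WT, with the edgeR estimate and 95% interval (black) and the range over the alternative settings (grey). The intervals of Slc11a1, Ftl1 and Ireb2 exclude 0, the latter pair barely, and the Tfrc interval is the widest, from -0.26 to 1.01.

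Around the members, 100 other genes of iron handling were tested in 7 lists. At an unadjusted p under 0.05, 25 of 100 were past the threshold, 10 higher and 15 lower, against 19.1% of all genes tested. Without WT replicate 1 the count was 16. None passed the adjusted threshold in edgeR. DESeq2 called 9 of 100, namely Blvrb, Bmpr1a, Cd163, Ctsb, Glrx5, Nubp1, Slc46a1, Tax1bp1 and Trf, with adjusted p between 0.000312 and 0.0247, against 7.7% of the genes it adjusted. In the lists that follow, higher and lower count genes at the unadjusted edgeR threshold, and fold changes and p-values are those of edgeR. Over all 17739 genes tested, 1656 were higher and 1727 lower at that threshold. In either direction, the share past it was 18.8% of the uptake list, 40% of the export list and 36.8% of the haem list. The cytosolic list had 29.4% and the mitochondrial list 10%. The list with known elements had 0% and the ferritin breakdown list 33.3%. These lists hold 6 to 20 tested genes, so each share rests on few genes. Among transferrin and uptake partners, 1 of 16 was higher and 2 were lower. Cd163, the haemoglobin scavenger receptor of macrophages and one of the border macrophage markers above, held 83.4, 135 and 98.2 CPM across WT libraries and 43.6, 63.1 and 64.5 CPM in those labelled Selk-/- (log2 fold change -0.89, SE 0.225, edgeR adjusted p = 0.134). Trf, which encodes transferrin, the ligand of Tfrc, and is made in brain largely by oligodendrocytes, held 1146 to 1267 CPM across WT libraries and 1001 to 1035 CPM in those labelled Selk-/- (log2 fold change -0.24, edgeR adjusted p = 0.157). The 11 oligodendrocyte markers, Trf included, summed to 1540 to 1690 CPM across WT libraries and 1371 to 1535 CPM in the others. Trf averaged 1107 CPM over the libraries and makes up most of this sum, so the sum is not separate from Trf. Of the 10 markers tested, Trf among them, 9 were lower. The part of oligodendrocytes in the Trf value was not tested. Steap4, another metalloreductase, held 6.78, 6.16 and 5.74 CPM across WT libraries and 6.89, 16.7 and 9.82 CPM in those labelled Selk-/-. The groups did not overlap (log2 fold change 0.84, SE 0.310, edgeR adjusted p = 0.218). Its highest value was in replicate 2 labelled Selk-/-, the library with the high Tfrc level.

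The list for export and copper oxidases, partners of Slc40a1, had 2 of 10 higher and 2 lower. The ferroxidase gene Cp (ceruloplasmin) held 175 to 193 CPM across WT libraries and 208 to 224 CPM in those labelled Selk-/- (log2 fold change 0.21, edgeR adjusted p = 0.183). The receptor gene Bmpr1a, part of the pathway that controls hepcidin in liver, was higher (0.39, edgeR adjusted p = 0.109), its ligand gene Bmp2 lower (-0.59, edgeR adjusted p = 0.137) and Hfe lower (-0.25, edgeR adjusted p = 0.180). Hepcidin mRNA (Hamp), whose product closes ferroportin, was at 0.0355 to 1.01 CPM and was not tested.

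Haem genes had 2 of 19 higher and 5 lower, with a median log2 fold change of -0.114. The haem and folate carrier Slc46a1 held 53.1, 53.1 and 46.5 CPM across WT libraries and 39.1, 32.8 and 35.7 CPM in those labelled Selk-/- (log2 fold change -0.51, SE 0.092, edgeR adjusted p = 0.105). The biliverdin reductase genes Blvrb (-0.57, edgeR adjusted p = 0.1202) and Blvra (-0.31, edgeR adjusted p = 0.147) were lower without overlap, and the porphyrin exporter gene Abcg2 was higher (0.32, edgeR adjusted p = 0.198). Hmox1, the inducible haem oxygenase that frees iron from haem, held 63.7 to 81.6 CPM across WT libraries and 68.9 to 99.6 CPM in those labelled Selk-/-, with overlap. Hmox2, also in the list, held 98.15 to 109.6 CPM across WT libraries and 84.25 to 94.28 CPM in those labelled Selk-/-. It was lower without overlap (log2 fold change -0.19, edgeR adjusted p = 0.219). Hmox1 and Hmox2 were both chosen after their values were seen. Pgrmc1, the most abundant of the list per length, had a log2 fold change of -0.09.

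Control of the iron regulatory proteins and delivery of cytosolic iron had 2 of 17 higher and 3 lower. Fbxl5, the ubiquitin ligase subunit that degrades the Ireb2 product, held 69.2, 78.2 and 79.2 CPM across WT libraries and 86.9, 116 and 88.7 CPM in those labelled Selk-/- (log2 fold change 0.37, SE 0.122, edgeR adjusted p = 0.180). Ciao2a, which acts in the maturation of the Aco1 product, was lower (-0.27, edgeR adjusted p = 0.123), as were the scaffold genes Nubp1 (-0.60, edgeR adjusted p = 0.133) and Nubp2 (-0.30, edgeR adjusted p = 0.134). The iron chaperone gene Pcbp2 overlapped between groups. Mitochondrial iron and iron-sulphur cluster genes had 0 of 20 higher and 2 lower. Glrx5, which passes on new clusters, held 18.4, 18.7 and 18.2 CPM across WT libraries and 13.2, 12.8 and 13.4 CPM in those labelled Selk-/- (log2 fold change -0.49, SE 0.081, edgeR adjusted p = 0.105), and Isca2 was lower by less (-0.26, edgeR adjusted p = 0.166).

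Among 6 other mRNAs with a known iron-responsive element, 0 were past the unadjusted threshold in edgeR and 0 were called by DESeq2, and none separated the groups. Epas1, the most abundant of them per length, held 614 to 737 CPM across WT libraries and 609 to 846 CPM in those labelled Selk-/-. Of genes for ferritin breakdown and lysosome control, 3 of 12 were higher and 1 lower. Tax1bp1, an autophagy receptor that works with the Ncoa4 product, held 188, 183 and 192 CPM across WT libraries and 219, 244 and 228 CPM in those labelled Selk-/- (log2 fold change 0.29, SE 0.070, edgeR adjusted p = 0.116). The protease gene Ctsb was lower, at 2186 to 2247 CPM against 1803 to 1990 CPM (-0.22, edgeR adjusted p = 0.175). Atg9a (0.23) and Ctsl (0.22) were higher. In position, Cp, Fbxl5, Nubp1, Ctsb and Atg9a each overlap a gene on the opposite strand (Hps3, Bst1, Tvp23a, Fdft1 and Ankzf1). Without known strand handling, reads from a shared stretch could be assigned to either gene. Whether the pairs share exons was not tested. Bst1, Tvp23a and Fdft1 held far fewer counts than Fbxl5, Nubp1 and Ctsb in every library. The highest counts of Hps3 and Ankzf1 were closer to those of Cp and Atg9a.

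**Figure D5:**
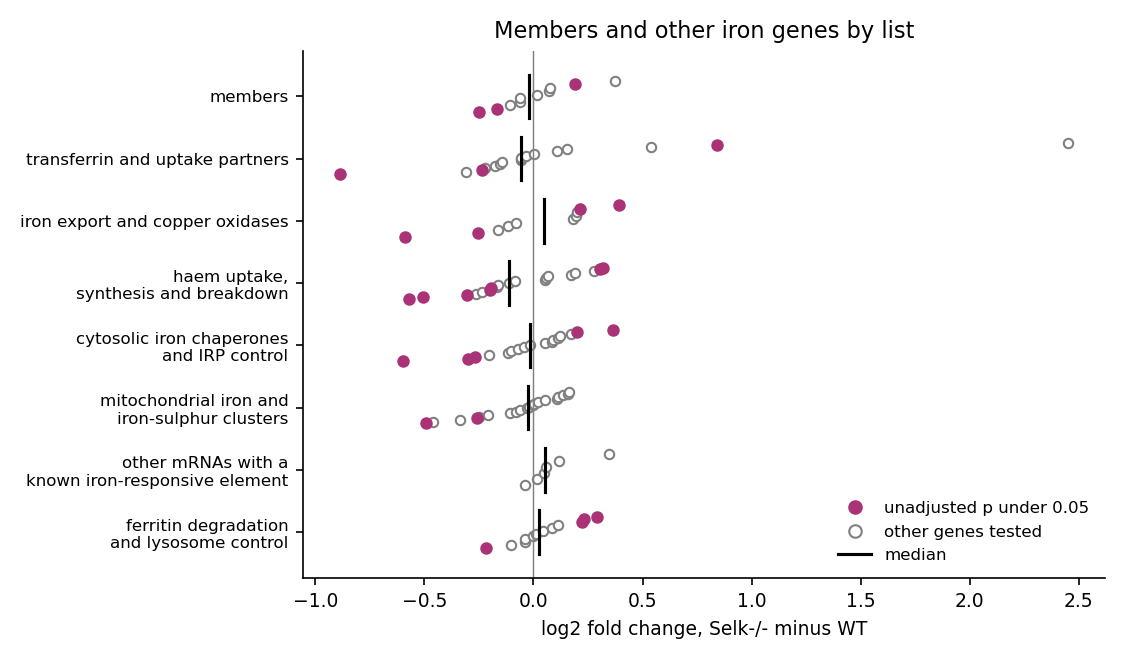
log2 fold change, libraries labelled Selk-/- minus WT, of the 10 members and of the tested genes of 7 other iron lists, 1 point per gene, filled where the unadjusted p was under 0.05, with the median of each list as a bar. The medians lie between -0.114 and 0.052, and the point farthest to the right is Lcn2.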

How the data were processed

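RNA from 6 mouse microglia libraries was measured by sequencing. The authors deposited raw counts and FPKM per gene in 1 table, per the file headers. Per the labels' protocols, reads were aligned with Hisat2 2.0.5 and quantified with stringtie 2.2.0, and the authors tested genes with DESeq2 1.20.0. The submitters' processing notes instead name Bowtie 0.12.2 with the builds mm8 and mm9. The table names no build, and its positions differ from GRCm38, the build of the hairpin sequences. Library totals are given with the results.

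The main test on counts was the two-sided, robust quasi-likelihood test of edgeR 4.0.16 (R 4.3.3), after filterByExpr and TMM, with Benjamini-Hochberg adjustment over all genes tested. CPM uses TMM-scaled totals, except for small nucleolar RNA. Standard errors come from the quasi-likelihood F statistic. This step was tested on simulated data. DESeq2 1.42.0, limma 3.58.1 and the settings of the closing part were alternatives, with log2(FPKM + 1) and log2(FPKM + 0.1) for FPKM. Single levels and ratios were compared by exact permutation. The 95% intervals of log2 fold changes use the quasi-likelihood standard errors, so they include the spread between libraries.

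Groups follow the genotype labels, and replicate numbers are names. No 2 libraries of a group were duplicates: chi-square divided by its degrees of freedom was between 13.3 and 43.5. The members and lists were chosen with earlier results of these data known. Named genes are the members, every ferritin copy with a count, and from each list up to 4 genes of the smallest p with a mean of at least 1 CPM plus the most abundant by FPKM. Not every gene the rule takes is described. Symbols came from the table for 32704 genes and from a reference of gene IDs for 20334.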

Additional observations from a re-analysis of the deposited data

How the results depend on the processing

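No paired analysis was possible because the replicate numbers used here follow accession order, and the numbers in the titles, 2 of them in replicate 3 of each group, do not match up library by library. The scale per microglia marker and the fits without the 2 libraries of low small nucleolar RNA (snoRNA) were added after the data were seen. Against 0 members past the adjusted threshold in edgeR, DESeq2 called 1. The snoRNA block and the fits without the low-snoRNA libraries both leave the genotype difference on replicate 1 labelled Selk-/-, so they are not separate evidence. Members past the unadjusted threshold, 3 in the main test, were 1 with log2(FPKM + 0.1), with the snoRNA split as a block, without the low-snoRNA libraries and with the gene length trend removed, and 1 to 3 with 1 library left out (1 without WT replicate 1 or 2 and without replicate 1 or 2 labelled Selk-/-). Members without overlap, 2 in the main test, were 4 per microglia marker, and 2 to 4 with 1 library left out (4 without WT replicate 3), while the share of all genes tested went from 26.2% to 41.6% and to 32.6% to 40.4%. Over all genes, 0 adjusted calls became 974 with DESeq2, 92 with at least 10 CPM in 3 libraries, 1 with limma-voom and 0 to 59 with 1 library left out (59 without replicate 1 labelled Selk-/- and 1 without replicate 2). The 3383 unadjusted calls became 1873 with the snoRNA block, 1921 without the low-snoRNA libraries and 2248 to 3482 with 1 library left out (2248 without WT replicate 1). The 25 other iron genes became 13, 11 and 16 to 30 in the same order. Of 189 log2 fold changes of members under alternatives, 168 had the direction of the main value and 21 the opposite, none of these called. Fth1 was 0.0030 without the low-snoRNA libraries and 0.0009 with the length trend removed. Slc40a1 was 0.0604 without the libraries with 2 numbers in the title, and -0.1093 to 0.0101 with 1 library left out. Ncoa4 was -0.0025, -0.0026 and -0.0025 in the 3 FPKM fits, -0.0612 with the block, -0.0414 without the low-snoRNA libraries, and -0.0222 to 0.1542 with 1 library left out. Aco1 was -0.0098 with no filter, -0.0145 with limma-voom, -0.0035, -0.0039 and -0.0035 in the FPKM fits, -0.0182 with the length trend removed, and -0.0147 to 0.0778 with 1 library left out. Steap3 was -0.0262, -0.0331 and -0.0262 in the FPKM fits and -0.0238 to 0.2494 with 1 library left out. The causes were not tested.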
